A study of Mus musculus with 18 samples.

Results

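The genes for the ligands and receptors of axon guidance were examined for nuclear factor I binding at 3 stages on the way to medulloblastoma, a cerebellar tumor, in mice. They are the autosomal protein-coding genes of the RefSeq table whose symbols begin with Sema, Plxn, Epha, Ephb, Efna, Efnb, Robo, Unc5, Ntn or Slit and a digit, with Nrp1, Nrp2, Dcc and Neo1. The rule found 71 genes among 20661. Of these, Unc50 and Unc5cl match by symbol only and are not receptors for netrins. The transcription factors NFIA and NFIB were mapped by CUT&Tag, which uses a transposase tethered by an antibody to cut and tag DNA beside a bound protein.

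The 18 libraries are from day 7 after birth for granule neuron progenitors (GNPs, which later form the granule neurons of the cerebellum), from day 28 for hyperplasia and from adult mice for medulloblastoma. All cells were taken from the cerebellum on a Percoll density gradient, with 100000 cells per library. There were 3 preparations of each stage, with 1 library for NFIA and 1 for NFIB. The labels give no genotype, strain, promoter or driver gene for the mouse model, and none states whether animals were pooled or separate, so that the spread behind each p-value is that of the preparations and may be technical. Age changed with stage throughout, and the tumor preparations have title dates of their own, so that stage cannot be told apart from age, nor tumor from date. Fewer cells of a type and less binding per cell cannot be told apart either.

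Guidance cues steer growing axons and migrating neurons. Semaphorins act through plexins, with neuropilins as coreceptors of the secreted class 3 semaphorins. Netrins act through DCC, neogenin and the UNC5 receptors. Slits act through Robo receptors, and ephrins, held on one cell surface, through the Eph receptor tyrosine kinases of another. In the cerebellum, such cues guide the granule cells as they leave the outer layer where their progenitors divide.

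Each library was described by its 30000 highest-scoring autosomal peak summits, here called top summits, each given to the nearest protein-coding gene span within 100 kb. A gene's value is the number of top summits given to it, summed over the NFIA and the NFIB library of a preparation. It counts places of signal near a gene and measures neither their height nor the gene's expression. The deposited lists held from 49166 to 374375 autosomal summits per library, and the reads behind them were not used, so that depth is unknown. The second NFIA library of hyperplasia stood apart, with 20.4% of its top summits tied at the lowest score kept. Genes that mark granule progenitors (Atoh1, Pax6, Zic1, Barhl1, Gli2, Mycn and Neurod1) had top summits in 7 of 7 cases, with sums of 80 to 90 per preparation in GNPs, 63 to 77 in hyperplasia and 75 to 83 in tumors, and the 4 microglia markers had 0 to 3. Other marker lists also had top summits at every stage: sums ran from 16 to 27 for 4 genes of astrocytes and Bergmann glia, 19 to 27 for 4 of oligodendrocytes, 17 to 25 for 3 of vessels and 4 to 7 for 3 of Purkinje cells. The median gene of the vessel list had a mean of 6.56 and that of the progenitor list 6.44, so that top summits at marker genes did not set the labelled cells apart from these types. Chromosome 6 held 5.25% ± 0.0791 (SD, n = 3) of the top summits in GNPs, 5.38% ± 0.0710 in hyperplasia and 7.07% ± 0.154 in tumors, and 6 of the 71 genes lie there.

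The guidance genes took between 0.963% and 1.03% of the top summits at each stage. The share was 1.02% ± 0.0391 (SD, n = 3 preparations) in GNPs, 0.963% ± 0.0126 in hyperplasia and 1.03% ± 0.0126 in tumors, or 584 to 626, 571 to 586 and 615 to 629 top summits per preparation. The ranges of hyperplasia and tumor did not overlap, and the range of GNPs met both. The genes make up 0.344% of all genes and 1.38% of the summed length of gene spans, their median span being 69.0 kb against 17.5 kb for all genes. Per 100 kb of span, 3.14 top summits lay inside these genes and 3.37 inside all genes. Top summits were thus more numerous per gene and not per length of gene, as the plot of summits against span shows.

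**Figure D1:**
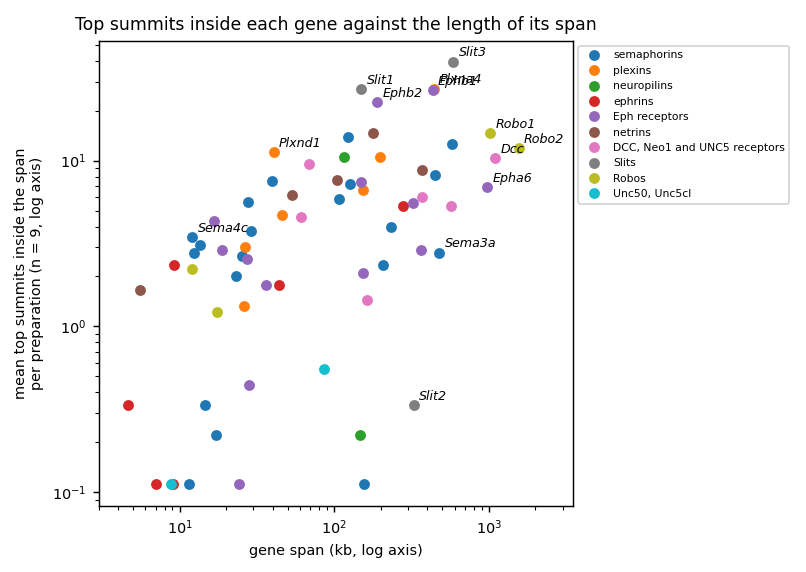
Mean number of top summits inside each guidance gene per preparation (vertical log axis, n = 9 preparations) against the length of its span in kb (horizontal log axis), each point being a gene colored by family and genes with none inside left out. Slit1 and Plxnd1 lie high for their length, while Slit2, Sema3a, Epha6 and Robo2 lie low.

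The summits were concentrated in a few genes. The 10 genes with the most took 42.2% of the total. Slit3, the gene of a repellent, led with a mean of 40.9 top summits over the 9 preparations, followed by Ephb1 with 37.0, Plxna4 with 33.8, Slit1 with 27.1, Ephb2 with 23.6 and Plxna2 with 21.6. Of the 71 genes, 44 had a top summit in all 18 libraries, 15 had a mean below 2 and were not tested, and 2 (Epha1 and Ntn5) had none. Relatives differed widely: Slit2 spans 326445 bases of chromosome 5 and had 3 top summits in all, 1 of them in hyperplasia and 2 in tumors, while Slit1 in less than that length had at least 24 in every preparation. Among genes with a mean of at least 2, the densest inside the gene were Ntn3 (30.0 per 100 kb), Sema4c (28.6), Plxnd1 (27.7) and Ephb6 (26.0). Densities were 0.580 in Sema3a, 0.711 in Epha6 and 0.764 in Robo2, which have long spans.

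Some of the sites at these genes had a top summit in every library. Top summits of all libraries were extended by 100 bp to either side and merged into regions, and 440 regions hit by at least 3 libraries fell to 64 of the genes. Of these, 56 (12.7%), at 29 genes, were hit in all 18 libraries, against 14.9% of all 37417 regions given to a gene. Among these 56, the region with the best lowest rank was inside Slit1 at chr19:41745943-41746414 (mm10). It ranked 494 or better among the 30000 top summits of every library. Next came regions inside Ntn1 at chr11:68233467-68234073 (rank 1173 or better), Unc5b at chr10:60820418-60820893 (1892), Ephb2 at chr4:136652307-136652996 (1913) and Sema4f at chr6:82917219-82917864 (3331). Slit1 is a repellent ligand, Ntn1 encodes netrin-1, Unc5b a netrin receptor, Ephb2 a receptor for B ephrins and Sema4f a membrane-bound semaphorin. The table used gives no exons, so that exon and intron were not told apart. By position, 68.2% of the regions at guidance genes lay inside the gene away from its ends, against 47.8% of all. Within 1 kb of a gene end lay 8.64%, against 24.9%. The genes were not matched for length: their median span was 69.0 kb against 17.5 kb for all genes. Ends of a fixed 1 kb make up less of a long span, and the part of length in this difference was not tested.

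A region hit in all 18 libraries overlapped the promoter of 7 guidance genes: Sema4c, Unc5c, Efna1, Ephb2, Plxna2, Ephb3 and Ephb1. Promoters of 300 bases, from 250 before to 50 after a transcript's start, were taken from RefSeq (GRCm38.p6), where 77 promoters of 61 of the 71 genes were found. Of these, 33 promoters of 30 genes overlapped a region. The 6 with the best ranks are shown because they carry the constant promoter signal, with NFI half-sites (TTGGC or its reverse complement GCCAA, searched on both strands) in capitals:

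Sema4c, chr1:36557508-36557807, minus strand: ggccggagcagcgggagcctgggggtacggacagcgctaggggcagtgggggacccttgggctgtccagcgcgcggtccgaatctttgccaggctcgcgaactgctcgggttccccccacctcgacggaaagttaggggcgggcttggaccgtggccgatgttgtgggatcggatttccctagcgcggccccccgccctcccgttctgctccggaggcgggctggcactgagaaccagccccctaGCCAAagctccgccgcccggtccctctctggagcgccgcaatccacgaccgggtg
Unc5c, chr3:141465314-141465613, plus strand: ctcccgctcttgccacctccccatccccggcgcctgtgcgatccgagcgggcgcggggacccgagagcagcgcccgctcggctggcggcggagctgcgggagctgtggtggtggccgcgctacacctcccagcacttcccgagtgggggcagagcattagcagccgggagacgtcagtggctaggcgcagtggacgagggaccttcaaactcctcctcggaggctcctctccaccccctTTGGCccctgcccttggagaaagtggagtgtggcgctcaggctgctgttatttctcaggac
Efna1, chr3:89279596-89279895, minus strand: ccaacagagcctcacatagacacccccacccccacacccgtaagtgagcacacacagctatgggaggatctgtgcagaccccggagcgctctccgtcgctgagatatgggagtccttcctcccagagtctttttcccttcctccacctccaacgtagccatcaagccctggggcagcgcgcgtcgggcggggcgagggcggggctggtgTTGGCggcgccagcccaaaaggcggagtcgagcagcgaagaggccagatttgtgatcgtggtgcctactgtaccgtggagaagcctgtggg
Ephb2, chr4:136835963-136836262, minus strand: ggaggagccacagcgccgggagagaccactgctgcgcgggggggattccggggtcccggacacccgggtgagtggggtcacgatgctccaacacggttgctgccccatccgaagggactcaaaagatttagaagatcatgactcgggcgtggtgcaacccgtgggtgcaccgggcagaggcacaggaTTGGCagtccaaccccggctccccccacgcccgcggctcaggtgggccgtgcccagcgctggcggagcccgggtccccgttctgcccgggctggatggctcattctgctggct
Plxna2, chr1:194619579-194619878, plus strand: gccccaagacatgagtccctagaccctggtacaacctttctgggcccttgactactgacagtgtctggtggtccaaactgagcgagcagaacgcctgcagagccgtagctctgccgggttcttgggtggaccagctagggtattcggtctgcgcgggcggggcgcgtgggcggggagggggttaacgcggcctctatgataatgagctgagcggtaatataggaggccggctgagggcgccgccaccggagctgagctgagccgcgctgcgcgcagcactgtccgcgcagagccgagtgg
Ephb3, chr16:21204545-21204844, plus strand: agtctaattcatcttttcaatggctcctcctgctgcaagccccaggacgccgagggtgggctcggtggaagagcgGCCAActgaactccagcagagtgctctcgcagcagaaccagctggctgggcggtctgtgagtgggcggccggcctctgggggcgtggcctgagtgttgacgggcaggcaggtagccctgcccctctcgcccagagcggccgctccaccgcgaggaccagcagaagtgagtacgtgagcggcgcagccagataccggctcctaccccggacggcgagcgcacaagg

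Half-sites were found in a smaller share of these promoters than of all. They occurred in 30 of 77 guidance gene promoters (39.0%), in 42.4% of the 33 that overlapped a region and in 48.0% of all 20084 promoters. The Plxna2 promoter holds none in this window. A full palindrome, TTGGC and GCCAA with 5 bases between, occurred in 0 of 77 and in 7 of all promoters (0.0349%). Median GC content was 64.3% in guidance gene promoters and 57.0% in all. A match of letters is a description of the sequence and not a measured site. The 6 printed sequences have GC contents between 63.3% and 70.3%.

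No guidance gene passed the test between stages. The numbers of summits per gene were compared with limma on log2(summits + 0.5), a scale on which differences of genes with few summits depend on the value added, with Benjamini-Hochberg adjustment over all 8593 genes that had a mean of at least 2. For hyperplasia against GNPs, 0 of 56 tested guidance genes passed, with 10 of all genes (0.116%). For tumor against GNPs it was 0 of 56 and 16 (0.186%), and for tumor against hyperplasia 0 of 56 and 9 (0.105%). At an unadjusted limma p below 0.05 there were 9, 10 and 12 guidance genes, or 16.1%, 17.9% and 21.4% of those tested, against 13.4%, 14.7% and 11.4% of all genes. The median log2 difference of the 56 genes was −0.11, −0.0370 and 0.0436 in the same order, and that of all genes was 0 in each.

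Individual genes whose preparations did not overlap were found in each comparison. In hyperplasia, 4 of 56 lay wholly above GNPs (7.14%; 5.3% of all genes): Sema6a, Unc5b, Unc5d and Sema3e. Another 8 lay wholly below (14.3%; 5.84% of all genes), among them Slit1, Ephb2, Nrp2, Robo1, Epha3 and Sema3f. In tumors, 9 lay above GNPs (16.1%; 6.24% of all genes), with 3 plexins among them (Plxna1, Plxna4 and Plxnd1), and 3 lay below (5.36%; 5.84% of all genes), namely Ephb3, Epha3 and Epha7. Against hyperplasia, 5 were higher in tumors (8.93%; 4.32% of all genes) and 3 lower (5.36%; 3.64% of all genes). The 3 comparisons share preparations and are therefore not independent of each other. The plot of all tested genes shows how small most of these gaps are.

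**Figure D2:**
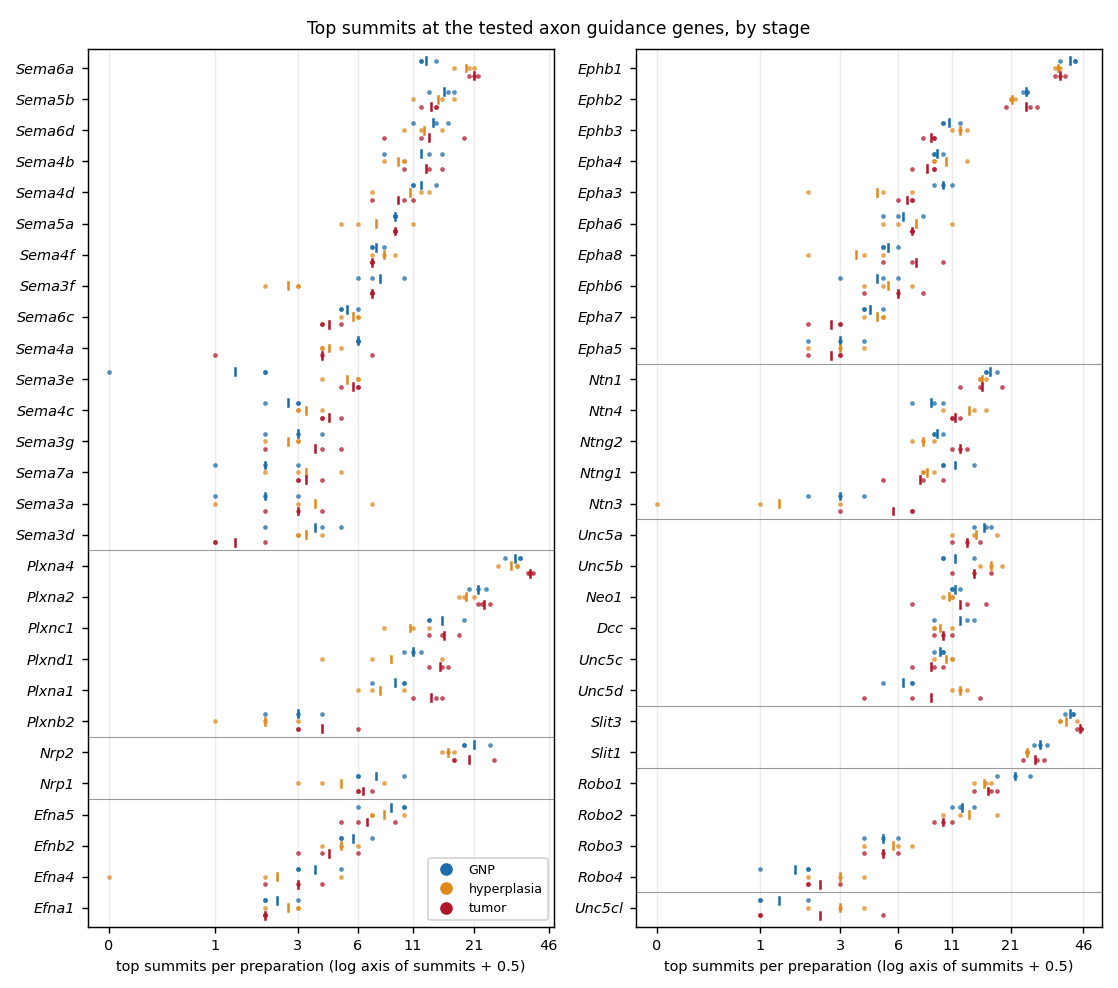
Top summits per preparation at the 56 tested guidance genes (horizontal log axis of summits + 0.5, labelled in summits), ordered by family and mean. Points are single preparations (3 per stage) and short vertical lines are stage means; for most genes the 3 stages lie on top of each other.

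Among the semaphorin ligands, Sema6a, Sema3e and Sema3f were those with the smallest p in hyperplasia against GNPs. Sema6a, on chromosome 18, encodes a transmembrane semaphorin that binds class A plexins and acts in granule cell migration. It had 14, 12 and 12 top summits in the 3 GNP preparations, 17, 21 and 20 in hyperplasia and 20, 21 and 22 in tumors. All later preparations lay above all GNP preparations, and hyperplasia and tumor overlapped. The log2 difference from GNPs was 0.59 ± 0.10 (SE) in hyperplasia (limma adjusted p = 0.0875) and 0.71 ± 0.10 in tumors (adjusted p = 0.0528). The tumor difference sat at the threshold: breaking ties in score with another seed gave 0.74 and a call. Sema6a was also called with the second NFIA library of hyperplasia replaced by the NFIB library of its preparation, and without the first preparation of hyperplasia. By target, the tumor difference was 1.01 with the NFIA libraries alone (limma adjusted p = 0.0310) and 0.31 with the NFIB libraries alone (adjusted p = 0.432), and the test of the gap between targets gave an adjusted p of 0.936. With the 15000 highest summits the differences were 0.32 in hyperplasia and 0.34 in tumors. When all summits in the lists were counted and scaled by the number in the list, the differences were −0.0209 and −0.16, at medians of all genes of −0.0587 and −0.15. Of the summits given to Sema6a, 40.9% lay inside the gene, and the rest within 100 kb of it.

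Sema3e, which encodes a secreted ligand of plexin D1, lies at chr5:14025276-14256689. It had 0, 2 and 2 top summits in GNPs, 4, 6 and 6 in hyperplasia and 6, 5 and 6 in tumors. Both later stages were wholly above GNPs. The log2 difference was 1.98 ± 0.59 in hyperplasia (limma adjusted p = 0.219) and 2.07 ± 0.59 in tumors (adjusted p = 0.185). With all summits counted and scaled, the tumor difference was 1.88 and passed the limma test (adjusted p = 0.00175), with 314 of 7334 genes. Without the first GNP preparation, the one at 0, the differences were 1.20 in hyperplasia and 1.30 in tumors, and with a pseudocount of 2 they were 1.19 and 1.27. A single region inside the gene, chr5:14195237-14195578, was hit in 0 of 6 GNP libraries and in 6 of 6 at both later stages. In the whole lists, whatever the score, 1 of 6 GNP libraries had a summit there.

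Sema3f encodes a secreted repellent that acts through neuropilin-2 and lies at chr9:107681499-107710475. Its values were 6, 10 and 7 in GNPs, 3, 3 and 2 in hyperplasia and 7, 7 and 7 in tumors. Hyperplasia was thus below both other stages without overlap, and GNP and tumor overlapped. The log2 difference was −1.35 ± 0.21 for hyperplasia against GNPs (limma adjusted p = 0.0875) and 1.26 ± 0.21 for tumor against hyperplasia (adjusted p = 0.129). With all summits counted and scaled, the differences were −0.71 and −0.0359, and with the 15000 highest summits −0.32 and 0.74. At chr9:107714405-107715017, 4236 bp outside the gene, a top summit was found in 6, 0 and 6 of 6 libraries of GNPs, hyperplasia and tumors, while the whole lists held a summit there in all 18. At chr9:107701644-107702045, inside the gene, the hits were 6, 0 and 2 of 6.

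The fourth semaphorin singled out by its p was Sema3d, a secreted ligand, with 4, 2 and 5 top summits in GNPs, 3, 4 and 3 in hyperplasia and 2, 1 and 1 in tumors. Tumors were below hyperplasia in every preparation and met GNPs at 2. The difference between tumors and GNPs was −1.15 ± 0.33 (limma adjusted p = 0.188), on very few summits, and −0.25 with all summits counted and scaled. Its region at chr5:12474950-12475412 was hit in 5, 5 and 1 of 6 libraries. Sema3a, a class 3 repellent, had 1 to 3 top summits in GNPs, 1 to 7 in hyperplasia and 2 to 4 in tumors, which overlapped. Over the semaphorins as a family, 7 of 16 tested were higher and 9 lower in hyperplasia than in GNPs, and 7 were higher, 8 lower and the remaining gene equal in tumors. Summed top summits were 117 to 119, 110 to 127 and 120 to 128 per preparation.

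**Figure D3:**
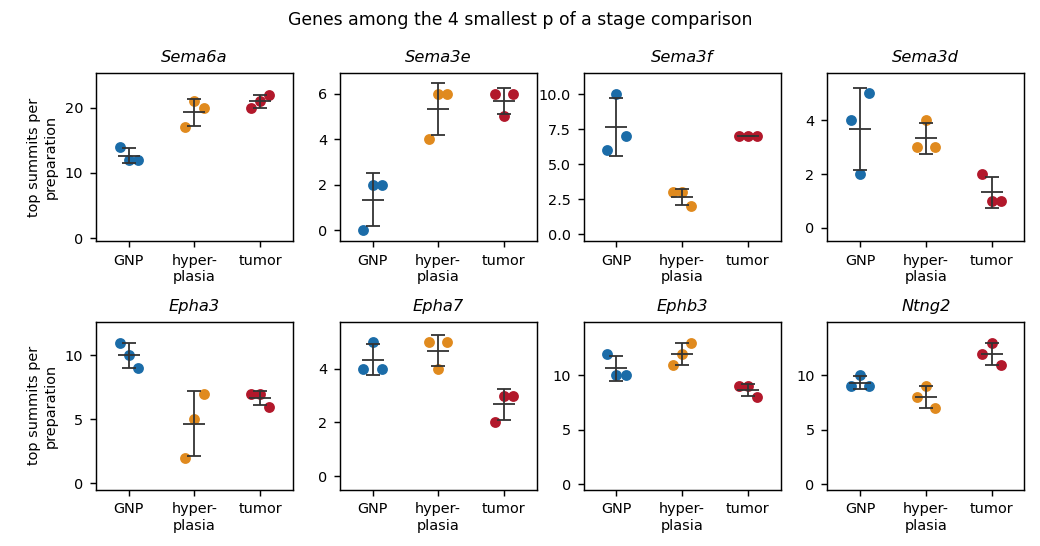
Top summits per preparation (vertical axes) at the 8 guidance genes that were among the 4 with the smallest p in at least 1 of the 3 stage comparisons. Points are preparations (3 per stage), and bars give mean ± SD; Sema6a and Sema3e lie lowest in GNPs, Sema3f in hyperplasia, and Sema3d, Epha7 and Ephb3 in tumors.

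The plexins, the semaphorin receptors, were the family in which the tested genes lay most on one side. This also held with the second NFIA library of hyperplasia replaced by the NFIB library of its preparation. In hyperplasia 6 of 6 had fewer top summits than in GNPs, with a median log2 difference of −0.35. With the 15000 highest summits 2 of 5 plexins were higher and 3 lower. With scores of at least 5 it was 1 and 5 of 6, and with all summits counted and scaled 0 and 7 of 7. In tumors 6 of 6 had more than in GNPs (median 0.29) and more than in hyperplasia (median 0.65), and none of the 6 passed the test in any comparison. Their summed top summits were 90 to 97 per preparation in GNPs, 74 to 94 in hyperplasia and 103 to 115 in tumors, so that only the tumor range stood clear. Plxna1, Plxna4 and Plxnd1 lie on chromosome 6, which held more top summits in tumors. With counts scaled by each chromosome's share, 4 of 6 plexins were higher in tumors than in GNPs (median 0.06) and 5 of 6 higher than in hyperplasia. The 3 plexins on other chromosomes, Plxna2, Plxnb2 and Plxnc1, were higher than GNPs by a median of 0.08. With all summits counted and scaled, 2 of 7 were higher in tumors than in GNPs, and with scores of at least 5, 3 of 6.

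Plxna4 had 34, 29 and 34 top summits in GNPs, 33, 27 and 33 in hyperplasia and 37, 38 and 39 in tumors. Tumors were above both other stages in every preparation. After scaling by chromosome share the difference from GNPs was −0.19 (limma adjusted p = 0.472) in place of 0.23 (adjusted p = 0.321). Plxna1 had 7, 10 and 10, then 10, 6 and 7, then 11, 15 and 14, again with tumors wholly above, and after the same scaling 0.14 in place of 0.55. Plxnd1, the receptor for the Sema3e product, had 12, 11 and 10, then 15, 7 and 4, then 13, 16 and 15. Its hyperplasia preparations spread more widely than either other stage. The part of chromosome 6 in these values was measured only by this scaling: over the 5 tested guidance genes on it, the median difference of tumors from GNPs was 0.33, against 0.32 for all genes of chromosome 6, and −0.06 after scaling.

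Plxna2, a receptor for the Sema6a product on chromosome 1, had 20, 24 and 22 top summits in GNPs, 19, 18 and 21 in hyperplasia and 25, 23 and 22 in tumors. Tumors lay above hyperplasia without overlap, by 0.27 ± 0.09 (limma adjusted p = 0.363). Plxnb2, the plexin with a known part in granule cell proliferation, had only 1 to 6 in any preparation, and Plxnb1 0 to 3. Among the coreceptors, Nrp2 had 19, 19 and 25, then 15, 17 and 16, then 26, 17 and 17. Hyperplasia lay below GNPs, and tumors overlapped with both. Nrp1 had 10, 6 and 6, then 3, 4 and 8, then 7, 6 and 6, and 3.57% of its top summits lay inside the gene.

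**Figure D4:**
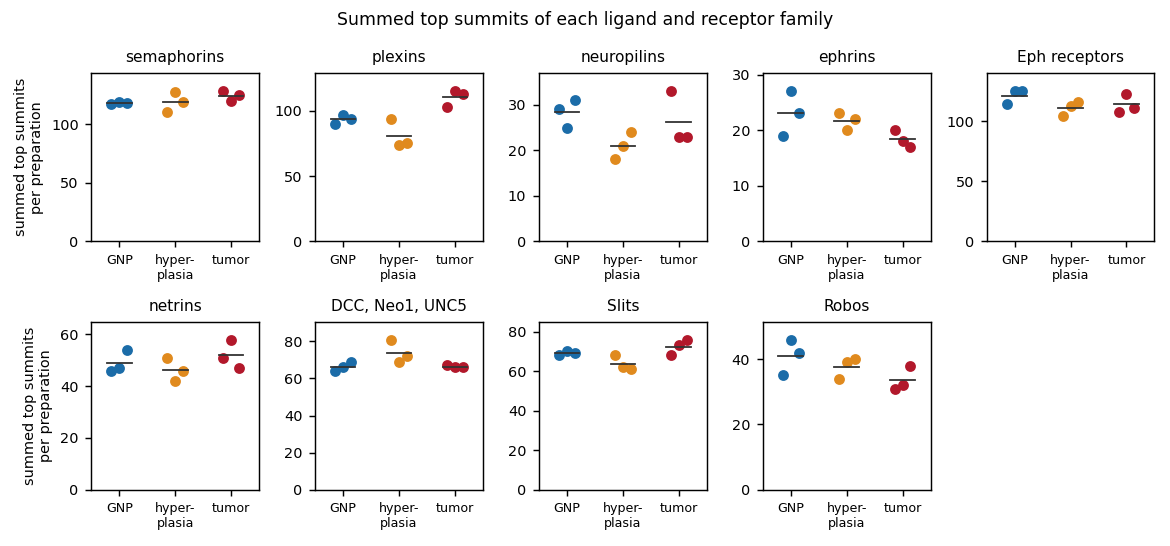
Summed top summits per preparation (vertical axes from 0) over all genes of each ligand or receptor family, by stage. Points are preparations (3 per stage) and lines are stage means; the tumor preparations of the plexins (103 to 115) lie above all others of that family.

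Among the netrin ligands, no stage difference passed the test. Ntn1 had 16, 16 and 18 top summits in GNPs, 16, 15 and 15 in hyperplasia and 15, 19 and 12 in tumors, which overlapped. Ntng2, which encodes a membrane-anchored netrin G, had 9, 10 and 9, then 8, 9 and 7, then 12, 13 and 11. Tumors were above both other stages in every preparation, with a difference from hyperplasia of 0.56 ± 0.11 (limma adjusted p = 0.179) that was 0 with the 15000 highest summits and 0.0653 with all summits counted and scaled. Ntn4 had 7, 9 and 10, then 16, 10 and 14, then 11, 11 and 12, with tumors wholly above GNPs. Ntn3 had 4, 2 and 3 top summits in GNPs, 3, 0 and 1 in hyperplasia and 3, 7 and 7 in tumors, and the ranges met at 3.

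At Ntn3 lay the only region at a guidance gene end that was gained in tumors. A region at chr17:24208701-24209429 was hit in 1 of 6 GNP libraries, 0 of 6 hyperplasia libraries and 6 of 6 tumor libraries. In the whole lists a summit lay there in 5, 3 and 6 of 6, so that the gain was one of rank among the summits. The top summits of this region lay inside the gene, and only the 100 bp extension reached the promoter window. Another region, chr17:24209457-24209708, has its top summits in that window. It was hit in 0, 1 and 2 of 6 libraries of GNPs, hyperplasia and tumors and was not called gained. The Ntn3 promoter was chosen for print after its values were seen, holds 0 half-sites and has a GC content of 71.3%:

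Ntn3, chr17:24209338-24209637, minus strand: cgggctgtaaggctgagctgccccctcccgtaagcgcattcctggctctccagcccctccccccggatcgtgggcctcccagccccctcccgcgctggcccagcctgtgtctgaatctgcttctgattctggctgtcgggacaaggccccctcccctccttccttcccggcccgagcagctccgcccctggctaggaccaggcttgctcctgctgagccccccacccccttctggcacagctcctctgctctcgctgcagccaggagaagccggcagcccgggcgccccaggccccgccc

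Of the netrin receptors, Unc5b and Unc5d stood above GNPs in hyperplasia. Unc5b had 10, 10 and 14 top summits in GNPs, 19, 15 and 17 in hyperplasia and 14, 11 and 17 in tumors. The hyperplasia range was the highest and met that of tumors, with a difference from GNPs of 0.58 ± 0.19 (limma adjusted p = 0.262). Unc5d had 7, 7 and 5, then 13, 12 and 11, then 15, 7 and 4, the tumors spreading over the values of both other stages. Unc5c, which acts in the placement of granule cells at the border of the cerebellum, had 10, 9 and 10, then 11, 9 and 11, then 7, 10 and 9, with all ranges overlapping. Dcc had 9 to 14 in GNPs, 9 to 11 in hyperplasia and 9 to 11 in tumors, and Neo1 11 to 12, 10 to 11 and 7 to 16. Of the 6 genes for these receptors, 3 were higher and 3 lower than in GNPs at each later stage.

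Of the regions at the Slit ligands, 2 of 35 at Slit3 and 4 of 15 at Slit1 were hit in all 18 libraries. Slit2 had no region. Slit3 had 41, 41 and 38 top summits in GNPs, 43, 36 and 36 in hyperplasia and 43, 45 and 45 in tumors. Tumors were above GNPs without overlap, by 0.15 ± 0.08 (limma adjusted p = 0.419). Slit1 had 27, 29 and 31, then 25, 25 and 25, then 24, 28 and 30. Hyperplasia was below GNPs by 0.21 ± 0.09 (adjusted p = 0.373), and tumors overlapped with both. The gene had no region gained or lost in any comparison, by the definition given below.

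Of the receptors of the Slits, Robo1, with 16 regions in all, held 3 of the 9 regions lost from GNPs to tumors. It had 18, 26 and 22 top summits in GNPs, 16, 14 and 17 in hyperplasia and 14, 17 and 18 in tumors. Hyperplasia was wholly below GNPs, and tumors met GNPs at 18. The differences were −0.47 ± 0.16 (limma adjusted p = 0.256) and −0.41 ± 0.16 (adjusted p = 0.287). A region inside the gene at chr16:72402412-72402795 was hit in 6, 0 and 1 of 6 libraries of GNPs, hyperplasia and tumors, and in the whole lists in 6, 2 and 2. Robo2 had 11 to 14, 10 to 18 and 9 to 11 top summits, so that its stages met or overlapped.

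The ephrin ligands had few top summits. Efna5 had 6, 10 and 10 in GNPs, 7, 7 and 10 in hyperplasia and 9, 5 and 6 in tumors, and Efnb2 had 7, 5 and 5, then 4, 6 and 5, then 3, 6 and 4. Their stages overlapped. In tumors 4 of 4 tested ephrins were lower than in GNPs (median −0.31), with none past the test. With all summits counted and scaled, the split was 1 higher and 1 lower, and with scores of at least 5 it was 2 and 2.

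Of the Eph receptors, Epha3, Epha7 and Ephb3 were each among the 4 guidance genes with the smallest p in a comparison. Epha3 had 11, 10 and 9 top summits in GNPs, 2, 5 and 7 in hyperplasia and 7, 7 and 6 in tumors. GNPs lay above all later preparations, with differences of −1.16 ± 0.36 in hyperplasia (limma adjusted p = 0.234) and −0.55 ± 0.36 in tumors (adjusted p = 0.525). The hyperplasia difference was −0.12 with all summits counted and scaled, −0.35 with scores of at least 5 and −0.70 without the first hyperplasia preparation. Within the first title date that GNPs and hyperplasia share, it was −1.57, and within the second, with 1 preparation of each, −0.34.

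Epha7 had 4, 5 and 4 top summits in GNPs, 5, 4 and 5 in hyperplasia and 2, 3 and 3 in tumors. Tumors were below both other stages by 1 to 3 summits, a log2 difference of −0.62 ± 0.18 from GNPs (limma adjusted p = 0.188) that turned to 0.55 with all summits counted and scaled and was −0.25 with the NFIA libraries alone. Ephb3 had 12, 10 and 10, then 11, 12 and 13, then 9, 9 and 8. Tumors were again wholly below, by −0.45 ± 0.11 from hyperplasia (adjusted p = 0.227), and the difference was 0.19 with the 15000 highest summits and 0.00319 with scores of at least 5.

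The Eph receptors with the most sites were Ephb1 and Ephb2. Ephb1 had 36, 42 and 42 top summits in GNPs, 35, 34 and 36 in hyperplasia and 34, 38 and 36 in tumors, and the stages met at 36. Ephb2 had 24, 25 and 25, then 22, 21 and 21, then 20, 28 and 26. Hyperplasia lay below GNPs in every preparation, and tumors spread across both. Epha4 had 9 or 10 in GNPs, 9 to 13 in hyperplasia and 7 to 9 in tumors. Over the family, 3 of 10 tested genes were higher and 7 lower in tumors than in GNPs.

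Between 1.36% and 3.41% of the regions at guidance genes were gained or lost in a comparison. A region counted as gained where at least 5 of 6 libraries of the later stage and at most 1 of 6 of the earlier had a top summit in it, and as lost in the opposite case. From GNPs to hyperplasia, 8 of 440 regions were gained (1.82%; 2.08% of all regions) and 12 lost (2.73%; 2.61%). From GNPs to tumors, 15 were gained (3.41%; 2.27%) and 9 lost (2.05%; 2.33%). From hyperplasia to tumors, 9 were gained (2.05%; 1.25%) and 6 lost (1.36%; 1.05%). These are counts with no test.

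The 42 regions concerned lay at 24 genes, 27 of them inside the gene, 3 at a gene end and 12 outside, and 5 were on chromosome 6. Slit3, which had 35 of the 440 regions, held 7 of them. At Slit3, chr11:35244576-35244903 was hit in 0, 5 and 5 of 6 libraries of GNPs, hyperplasia and tumors, chr11:35670715-35671182 in 0, 3 and 6, and chr11:35663763-35664405 in 5, 0 and 5. Regions of 1 gene therefore went different ways. At Ephb6, on chromosome 6, chr6:41605881-41606671 was hit in 1, 5 and 6 of 6. At Plxnc1, chr10:94934362-94934645 was hit in 6, 1 and 2, and at Sema5b, chr16:35600281-35600767 in 1, 5 and 1.

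At most of these regions, the stage without top summits still had summits of lower rank. Of the 59 gains and losses counted over the 3 comparisons, 5 had a summit of any score in at most 1 of 6 libraries of the stage without the site, 34 in 2 to 4 and 20 in at least 5. Among the 5 were the regions inside Sema3e and, 19859 bp outside Plxna4, at chr6:32607808-32608294, hit in 0, 5 and 2 of 6 libraries of GNPs, hyperplasia and tumors. The region map shows each site by its hits at the 3 stages.

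**Figure D5:**
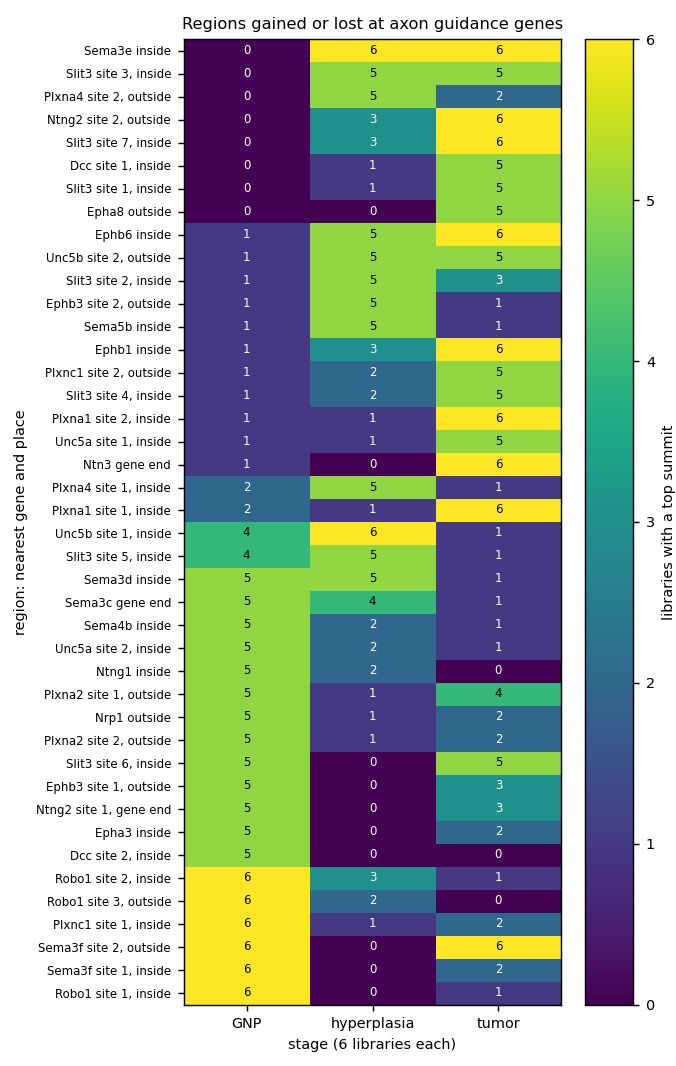
Number of libraries (color and printed number, of 6 per stage) with a top summit in each of the 42 regions gained or lost at a guidance gene. Rows are regions, named by nearest gene and place and ordered by their GNP hits; the Sema3e row (0, 6, 6) and the first Robo1 row (6, 0, 1) are the opposite extremes.

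NFIA and NFIB were not told apart at the guidance genes. Between the targets, 0 of 56 guidance genes and 0 of 8593 genes passed limma's test, with 3 and 537 at an unadjusted p below 0.05. The smallest adjusted p of a guidance gene was 0.776. Sema3e had a mean of 1.67 top summits per NFIA library and 2.44 per NFIB library, and Slit3 21.6 and 19.3. The difference of the stage differences between targets passed for 0 of 56 guidance genes and 0 of 8593 genes in each of the 3 comparisons. This second fit had no term for preparation, so that it left out the pairing of NFIA and NFIB within a preparation. At an unadjusted limma p below 0.05 there were 3, 2 and 3 guidance genes, and 352, 335 and 396 of all genes. In 6 libraries the deposited name carries the other target than the title used here, and in 12 another replicate number.

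A further list of 57 genes holds mostly intracellular effectors of guidance receptors, such as Srgap adaptors, collapsin response mediators and Mical oxidases. It also holds genes for ligands and surface receptors, among them Cxcl12, Draxin, Cxcr4, Met and Dscam. The list as a whole had 469 to 474 top summits per preparation in GNPs, 460 to 490 in hyperplasia and 506 to 519 in tumors. Of 47 tested, 26 were higher and 19 lower in hyperplasia than in GNPs, 29 and 17 in tumors, and 28 and 17 in tumors against hyperplasia. None passed the limma test, and the medians were 0.06, 0.08 and 0.10. Pak1, which encodes a protein kinase, had 2, 6 and 0 top summits in GNPs, 5, 8 and 8 in hyperplasia and 5, 5 and 4 in tumors (adjusted p = 0.381 for hyperplasia against GNPs). Its GNP preparations overlapped with those of both later stages.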

How the data were processed

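CUT&Tag for NFIA and NFIB was done on 18 libraries of 3 stages, with 3 preparations each. Per the submitters' processing notes, the tools were Bowtie2 and MACS2 and the build mm10; versions are not given there. Each deposited list holds 1 library's summits, with a score by the authors that was read here as −log10 p by the tool's convention; no label or header says whether p or q was written. A gene without a summit is one with none listed. The lowest score was 2.00. Use of a control library is not stated.

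Stage, target and preparation came from the titles. The 30000 highest autosomal summits of each library were kept (ties broken at random, seed 1) and given to the shortest RefSeq protein-coding span (GRCm38.p6) holding them, or the nearest within 100 kb. Coordinates are 1-based. For genes averaging at least 2 summits in the 9 preparations, limma 3.58.1 in R 4.3.3 (trend, empirical Bayes) compared the stages. Stage was the only term of that fit. The targets were compared on single libraries with terms for preparation and target. Their stage differences were compared with groups of stage and target as the only term. Calls are at an adjusted p below 0.05. Python 3.11.15, numpy 2.4.6, pandas 2.3.3 and matplotlib 3.10.9 did the rest. The assignment, the test and the region count were tested on simulated data. The genes and lists were chosen with earlier results of these data known. Named genes were those with the 4 smallest p in each comparison, the most or densest summits, the best-ranked gained, lost or constant regions, and a set with known parts in granule cell development; Ntn4, Unc5d, Sema4f, Epha6, Pak1 and single further regions were named after their values were seen. Depth is unknown, and no interval from counting error was computed. With 3 against 3 preparations an exact permutation test cannot go below 0.1, so none was used.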

Additional observations from a re-analysis of the deposited data

How the results depend on the processing

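Over the 12 named fold changes, 7 of 271 alternatives turned the direction and 264 did not, with 16 past the threshold. Some of the 264 could not turn it. Another filter on the mean, a replicate block, or leaving out a preparation of a stage outside the comparison left the fold change as it was. The 264 include Ntng2 in tumor against hyperplasia with 15000 top summits, where the difference was 0. With all summits counted and scaled by list length, Sema6a turned to −0.0209 in hyperplasia and −0.16 in tumors against GNPs, Epha7 to 0.55 (tumor against GNPs) and 0.29 (tumor against hyperplasia), and Sema3f to −0.0359 (tumor against hyperplasia). Ephb3 in tumor against hyperplasia turned to 0.19 with 15000 top summits and 0.00319 with scores of at least 5. The cause was not tested.

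For hyperplasia against GNPs, 1 of 42 guidance genes passed with 15000 top summits (Sema3e), with 43 of all 4914 genes. Sema3f was the 1 of 69 with no filter on the mean (91 of all 15935 genes). It was also the 1 of 55 with NFIB alone (54 of 8839). With a mean of at least 5, 3 of 41 passed (Epha3, Sema6a and Sema3f), with 84 of all 3063 genes. For tumor against GNPs there was 1, Sema6a, under each of 5 settings (not with NFIB alone, 0.31). Of all genes, 15 of 8579 passed with tie seed 2, 44 of 8593 with pseudocount 2 and 129 of 15935 with no filter. With a mean of at least 5 it was 110 of 3063, and with NFIA alone 24 of 8724. Sema6a was also the 1 called with the second hyperplasia library for NFIA replaced by the NFIB library of its preparation (38 of all 8667 genes). With all summits scaled there were 4 of 57 (Sema4d, Epha6, Robo2 and Sema3e), with 314 of all 7334 genes. For tumor against hyperplasia there was 1, Sema3f, with a mean of at least 5 (33 of all 3063 genes) and with NFIB alone (17 of 8839). Leaving out 1 preparation at a time gave 0, 0 to 1 (Sema6a, without hyperplasia 1, with 18 of all 8606 genes) and 0. Over all genes the calls ranged from 0 to 91, 1 to 314 and 0 to 36.

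The median difference of the guidance genes was −0.0688 with NFIB alone (hyperplasia against GNPs) and −0.21 with all summits scaled (tumor against GNPs). For tumor against hyperplasia it was −0.0503 with 15000 top summits, −0.0842 with all summits scaled, 0.10 with scores of at least 5 and 0.12 with NFIA alone. Without 1 preparation the medians ran from −0.14 to −0.0666, −0.0688 to −0.00206 and −0.00466 to 0.10.

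With 15000 top summits, 5 regions were gained in hyperplasia and 2 lost between hyperplasia and tumors. Asking for 6 of 6 against 0 of 6 libraries left 1 gained and 3 lost (hyperplasia against GNPs), 3 and 1 (tumor against GNPs), and 2 and 0 (tumor against hyperplasia). Without 1 preparation, gains ran from 8 to 19, 15 to 24 and 9 to 22 and losses from 12 to 24, 9 to 19 and 6 to 13, since fewer libraries had to meet the criterion. The counts over all regions under these settings are not given here. These counts therefore do not show whether guidance genes differed from other genes. The share of top summits at guidance genes was 0.864%, 0.816% and 0.874% at the 3 stages with genes within 20 kb, and 1.07% in tumors with 15000 top summits. Sema6a then had a mean of 9.56 in place of 17.7 within 20 kb.

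With the preparation number as a replicate block, 0 guidance genes were called in each comparison, and 1, 1 and 0 of all genes. Preparations of the same number in different stages correlated by 0.00378 to 0.0868 in their deviations from the stage means, all positive. Those of different numbers correlated by −0.0823 to 0.0268, most of them negative. All these values were small, and the numbers were not taken as pairs in the main fit. With the title date as a term, 0 guidance genes and 3 of all genes were called for hyperplasia against GNPs.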

Other observations

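Values within the title dates that GNPs and hyperplasia share were computed after the data were seen. The first date holds 2 preparations of each stage and the second 1 of each, so that a second-date value is a difference of 1 against 1. For Sema3f the log2 difference of hyperplasia from GNPs was −1.24 within the first date and −1.58 within the second. For Sema6a it was 0.53 and 0.71, and for Sema3e 2.27 and 1.38. Unc5b differed by 0.73 and 0.27, Ntn4 by 0.64 and 0.47 and Robo1 by −0.52 and −0.36. Sema3d had 0.24 and −0.65.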
